A study of Mus musculus with 12 samples.

Results

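Polyamine synthesis and its translational control are carried by 8 genes followed here: Odc1, Amd1, Srm and Sms, which encode the synthesis enzymes, Oaz1, Oaz2 and Azin1, which encode the antizymes and the antizyme inhibitor, and Sat1, which encodes an acetyltransferase of polyamine breakdown. They were taken by gene name from the authors' complete tables, and all 8 are listed for both genotypes, out of 13027 genes in the knockout table, 13331 in the wild-type table and 12590 in both. The cells are C2C12, an established mouse myoblast line, either with the genotype Ddx27-/- or wild type, and each genotype was sampled as RNA from purified polysomes and as total cellular RNA. The gene targeted, Ddx27, codes for a helicase of the nucleolus with a known role in the maturation of ribosomal RNA. Values were available for 3 knockout polysomal, 2 knockout total, 3 wild-type polysomal and 3 wild-type total libraries, from 12 labelled samples. The labels give no clone, growth state or way of making the knockout, and name no drug or treatment in either genotype. They leave unsaid whether the libraries in a group derive from separate cultures, and p-values therefore measure only the spread between these libraries, which may be technical.

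Polyamines are small cations that bind RNA and are needed for cell growth and for the making of protein. Ornithine decarboxylase, from Odc1, makes putrescine. Srm and Sms then add aminopropyl groups to give spermidine and spermine, using a donor that the Amd1 enzyme supplies. Much of the control is translational in mammals: high polyamines favour the ribosomal frameshift that yields antizyme, antizyme binds ornithine decarboxylase and sends it to the proteasome, and antizyme inhibitor, an inactive relative of that enzyme, draws antizyme away. Sat1 acetylates spermidine and spermine, which lets them be oxidised or exported.

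Amd1 shows this control in its sequence. Its mRNA begins with a short upstream open reading frame that is known to hold back translation of the enzyme when polyamines are high. The RefSeq window around the Amd1 start site in GRCm38.p6 holds a whole reading frame of 6 codons before the stop, at chr10:40302155-40302175 on the minus strand, bases 14 to 34 of the transcript's 5′ UTR. The same reading frame lies in the window of Amd2, a near-identical gene, at chr10:35711860-35711880 on the minus strand. Capitals mark the start and stop codons, and the sequences are shown because they are the regulatory element of the gene and because they show how alike both copies are.
Amd1: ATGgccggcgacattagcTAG
Amd2: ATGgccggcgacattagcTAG
The first 50 transcribed bases of 32851 RefSeq windows were searched on the gene's own strand for ATG followed in frame by TAA, TAG or TGA. Of these windows 11.7% held a whole reading frame of any kind, and the first in each was compared. Only these 2 genes had this reading frame as their first. Windows were found for 6 of the 8 genes, and Amd1 was the one whose first 50 bases held such a frame. Reads from Amd1 and Amd2 cannot be told apart over identical stretches, so the level of Amd1 is uncertain. The same holds for Oaz1, Oaz2 and Sms, which have pseudogenes in the RefSeq annotation.

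The libraries differed in ways that touch these genes. They held 13683674 to 27347878 reads in listed genes, and each of the 8 genes was covered by 102 to 8858 reads per library. rRNA-like reads, those of 6 gene models with rRNA sequence, made up 23.2, 32.7 and 0.385% of knockout polysomal libraries 1 to 3, against 0.104 and 0.148% of knockout total RNA. In wild-type polysomal libraries 1 to 3 the share was 5.93, 14.6 and 0.676%, against 0.0591 to 0.0773% of wild-type total RNA. Libraries also carried a trend on gene length, relative to the mean of total RNA in their genotype. Wild-type polysomal library 2 stood apart at −0.53 on the log2 scale per doubling of length, so that short genes read high and long genes low in it. Wild-type polysomal libraries 1 and 3 had −0.23 and −0.14, knockout polysomal libraries 1 to 3 had −0.16, 0.17 and 0.11, and the knockout total libraries 1 and 2 differed from each other at 0.11 and −0.11. Ddx27 itself was at 31.3 to 52.6 normalised read counts in knockout polysomal and 39.7 to 45.0 in knockout total libraries, against 139 to 215 in wild-type polysomal and 139 to 150.4 in wild-type total libraries, so its RNA was lower but still present in every knockout library. All 6 myoblast markers checked, Myod1, Myf5, Des, Cdh15, Itga7 and Chrna1, were listed in both genotypes, with a summed level of 773 to 993 in knockout polysomal, 1480.1 to 1669 in knockout total, 1176 to 1268 in wild-type polysomal and 3610 to 4927 in wild-type total libraries. Among them Myod1, a defining transcription factor gene of myoblasts, was nearly absent from the knockout, at 0, 0 and 0.0861 in polysomal and 0.363 and 1.13 in total libraries, against 69.7 to 95.5 in wild-type polysomal and 137 to 177 in wild-type total libraries. Myf5, a related factor gene, was at 107 and 123 in knockout total libraries, against 58.0 to 70.5 in wild-type total libraries. The part of this difference between the lines in the comparisons of genotypes was not tested. None of the endothelial or adipocyte markers was listed. Of the leukocyte markers Cd68 and Cd14 were listed but not Ptprc, and of the epithelial ones only Cdh1, in the wild-type table and at no more than 1.26. Of 4 nuclear RNAs checked, 3 were listed, with a summed level of 151 to 1010.0 in knockout polysomal, 602 to 749.6 in knockout total, 209 to 433 in wild-type polysomal and 592 to 696 in wild-type total libraries. Malat1 was at 469.6, 917 and 77.9 in knockout polysomal libraries 1 to 3, against 326 and 340.4 in knockout total RNA, and at 281, 133 and 100.3 in wild-type polysomal libraries, against 117 to 178 in wild-type total RNA. Neat1 and Xist were lower in every polysomal library than in any total library of the same genotype, at 42.7 to 168 against 171 to 222 for Neat1 and 17.2 to 46.8 against 105 to 187 for Xist in the knockout, and at 18.5 to 54.1 against 73.3 to 106 for Neat1 and 27.3 to 107 against 401 to 438 for Xist in the wild type. The part of these library differences in the fractions' contrasts was not tested beyond the fits named beside each result. In bulk RNA fewer cells of a type and less RNA per cell cannot be told apart.

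Levels of the 8 genes were ordered per kilobase of the authors' gene length, where those of Amd1, Oaz1, Oaz2 and Sms are uncertain, as described above. Srm stood highest of the 8 in every group. Its level was 113 ± 12.1 normalised read counts per kilobase (SD, n = 3) in knockout polysomal, 111 ± 22.6 (n = 2) in knockout total, 275 ± 153 (n = 3) in wild-type polysomal and 84.2 ± 13.95 (n = 3) in wild-type total RNA, above the range of the next gene each time. Sms, which makes spermine, stood lowest, at 2.12 ± 0.281, 3.79 ± 1.03, 2.51 ± 1.03 and 2.30 ± 0.408 per kilobase in the same groups. In knockout total RNA the order between them was Oaz1 (46.3), Sat1 (39.4), Azin1 (21.2), Odc1 (11.9), Oaz2 (7.73) and Amd1 (6.96), where the ranges of Oaz1 and Sat1 and of Oaz2 and Amd1 overlapped. In wild-type total RNA it was Azin1 (33.9), Sat1 (28.4), Oaz1 (22.4), Odc1 (18.5), Oaz2 (8.33) and Amd1 (6.64), where Azin1 overlapped Sat1 and Sat1 overlapped Oaz1. Per kilobase the antizyme mRNA Oaz1 thus stood above the inhibitor mRNA Azin1 in knockout total RNA, at 33.1 to 59.4 against 19.3 to 23.1, and below it in wild-type total RNA, at 19.2 to 26.6 against 31.0 to 36.0. These ranges do not overlap in either genotype. Oaz1 is the shortest of the 8 genes and Azin1 the longest, and the length trend of the libraries was not removed from these levels. In wild-type polysomal RNA all neighbours from Oaz1 down to Oaz2 overlapped, and Azin1 ran from 10.9 to 40.2 per kilobase.

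**Figure D1:**
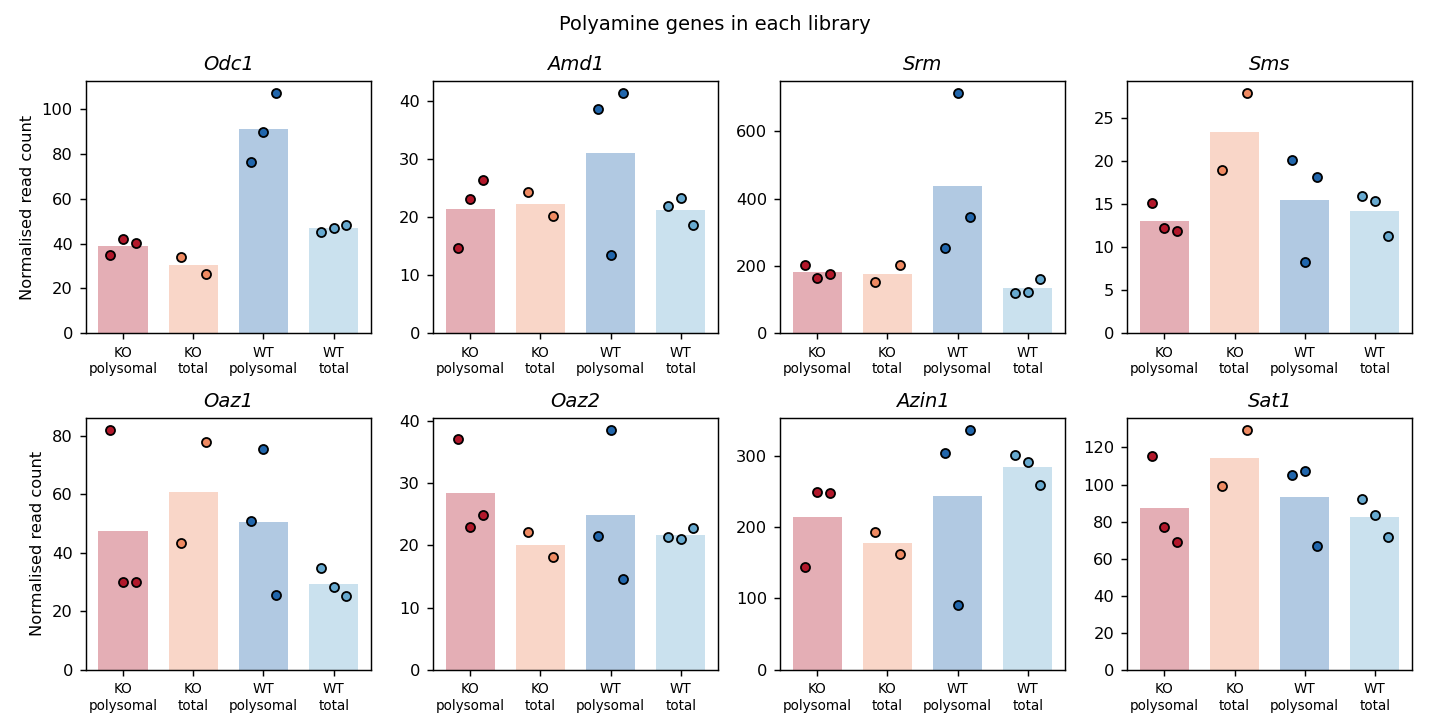
Normalised read count of each polyamine gene in each library, on the authors' scale. Points are libraries and bars are group means, with knockout (KO) groups left of wild-type (WT) groups. Odc1 is below 42.0 in all 5 knockout libraries and above 45.0 in all 6 wild-type libraries. This scale was set separately for each genotype. On the common scale the nearest Odc1 values are 43.3 (knockout polysomal library 2) and 43.5 (wild-type total replicate 1). The wild-type polysomal values of Srm, Azin1 and Amd1 are spread by 1 library.

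The first comparison set polysomal against total RNA inside each genotype, to ask which mRNAs are enriched on polysomes. In the knockout, 0 of the 8 genes passed the test, against 2.76% of all 12070 genes (0.911% higher and 1.85% lower). In the wild type Odc1 and Srm were higher in polysomal RNA, by about 1.91-fold and 2.98-fold, and the other 6 did not pass, where 8.89% of all 12380 genes tested were higher and 13.8% lower. Fold changes are limma estimates on log2 of the normalised read count plus 1, which makes the change of low genes smaller than it is, and a gene passed at a Benjamini-Hochberg adjusted p under 0.05 over all genes. Polysomal and total RNA values did not overlap for 3 of the 8 genes in the knockout, against 40.6% of all genes, and for 2 of 8 in the wild type, against 50.9%. The members' median log2 fold change was −0.027 in the knockout, against 0.037 for all genes, and 0.27 in the wild type, against −0.019 for all genes.

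Odc1 (ENSMUSG00000011179; GRCm38 chromosome 12, 17544808 to 17551502) had 34.7, 41.9 and 40.4 normalised read counts in knockout polysomal libraries 1 to 3, against 34.0 and 26.5 in knockout total libraries. In wild-type cells it had 76.4, 89.9 and 107 in polysomal replicates 1 to 3, against 45.3, 46.8 and 48.5 in total RNA. Polysomal values lay above total RNA values in both genotypes, narrowly in the knockout and without any approach in the wild type. The log2 fold change was 0.36 ± 0.24 (SE) in the knockout (limma adjusted p = 0.408) and 0.93 ± 0.18 in the wild type (limma adjusted p = 0.0131, above total RNA in 3 of 3 polysomal libraries). In the authors' deposited table these were 0.36 (FDR 0.525) and 0.96 (FDR 0.00381).

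Srm (ENSMUSG00000006442; chromosome 4, 148591513 to 148594619), the spermidine synthase gene, had 201, 164 and 176 normalised read counts in knockout polysomal libraries, against 151 and 202 in knockout total libraries. Its wild-type values were 254, 714 and 346 in polysomal replicates 1 to 3, against 120.0, 122 and 159.6 in total RNA. The knockout fractions overlapped completely, whereas every wild-type polysomal value exceeded every total RNA value, with replicate 2 far above the others. The log2 fold change was 0.038 ± 0.24 (95% interval −0.51 to 0.58, limma adjusted p = 0.943) in the knockout and 1.57 ± 0.37 (limma adjusted p = 0.0232, higher in 3 of 3 libraries) in the wild type, where it ranked above 99.0% of genes tested. In the authors' deposited table Srm stood at 0.029 (FDR 0.981) and 1.71 (FDR 9.76e-05). Without wild-type polysomal replicate 2, which had the strongest length trend and 14.6% rRNA-like reads, Srm stood at 1.15 (limma adjusted p = 0.000504). Leaving out any 1 of the wild-type total libraries kept both directions and ended both calls, with limma adjusted p of 0.0734 to 0.0825 for Odc1 and 0.0827 to 0.0978 for Srm.

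Amd1 (ENSMUSG00000075232; chromosome 10, 40287458 to 40302188), with the upstream reading frame shown above, had 14.6, 23.0 and 26.4 normalised read counts in knockout polysomal libraries, against 24.3 and 20.2 in knockout total libraries. The wild-type polysomal replicates had 38.5, 13.4 and 41.3, against 21.9, 23.2 and 18.5 in total RNA. Wild-type polysomal replicates 1 and 3 were above all total RNA libraries and replicate 2 below all of them. Accordingly neither contrast passed, at −0.092 ± 0.30 in the knockout (limma adjusted p = 0.886) and 0.38 ± 0.41 in the wild type (limma adjusted p = 0.508). Without wild-type polysomal replicate 2 the wild-type value was 0.88 (limma adjusted p = 0.000844), past the threshold.

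Sms (ENSMUSG00000071708; chromosome X, 157443851 to 157492287), the spermine synthase gene, had 15.0, 12.2 and 11.9 normalised read counts in knockout polysomal libraries, against 18.9 and 27.8 in knockout total libraries. It had 20.1, 8.22 and 18.1 in wild-type polysomal replicates, against 15.9, 15.3 and 11.3 in total RNA. The knockout fractions did not overlap and the wild-type fractions did. Sms stood at −0.78 ± 0.27 in the knockout, with an unadjusted p of 0.0197 by limma's test (limma adjusted p = 0.145), and at 0.044 ± 0.34 in the wild type (limma adjusted p = 0.934). It was the 1 member of 8 past an unadjusted p of 0.05 in the knockout, against 22.7% of all genes, which is no more than the background. By edgeR and DESeq2 on the recovered reads 0 members were called there as well. Without knockout polysomal library 1, both Sms (−0.88, limma adjusted p = 0.048) and Oaz1 (−0.93, limma adjusted p = 0.0457) passed.

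Oaz1 (ENSMUSG00000035242; chromosome 10, 80826656 to 80829290), the main antizyme gene, was uneven within groups. It had 82.0, 30.1 and 29.8 normalised read counts in knockout polysomal libraries, against 43.4 and 77.9 in knockout total libraries. In the wild type it had 50.8, 75.4 and 25.7 in polysomal replicates, against 34.9, 28.3 and 25.2 in total RNA. Within each of the knockout groups 1 library was over 1.5 times as high as another. The high libraries of Oaz1, knockout polysomal 1, knockout total 2 and wild-type polysomal 2, are among those in which short genes read high. Wild-type polysomal library 3 also had a length trend of that sign, at −0.14, but held the lowest wild-type polysomal value. The part of gene length in this unevenness was not tested beyond the fit below with the length trend removed. At 1311 bases Oaz1 is the shortest of the 8 genes. It stood at −0.46 ± 0.46 in the knockout (limma adjusted p = 0.586) and 0.65 ± 0.37 in the wild type (limma adjusted p = 0.232, past the threshold at 1.06 and 0.0312 without polysomal replicate 3, but 0.30 without polysomal replicate 2 and 0.24 with the length trend removed, neither of which passed).

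Oaz2 (ENSMUSG00000040652; chromosome 9, 65676548 to 65690300), a second antizyme gene, had 37.2, 22.9 and 24.9 normalised read counts in knockout polysomal libraries, against 22.2 and 18.05 in knockout total libraries. It had 21.5, 38.6 and 14.6 in wild-type polysomal replicates, against 21.3, 20.97 and 22.7 in total RNA. Its contrasts were 0.45 ± 0.28 in the knockout (limma adjusted p = 0.379) and 0.085 ± 0.33 in the wild type (limma adjusted p = 0.865). The wild-type polysomal values thus straddled total RNA, while those of the knockout lay above it.

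Azin1 (ENSMUSG00000037458; chromosome 15, 38487430 to 38519294), the antizyme inhibitor gene, is the longest of the 8 at 8364 bases. It had 143, 249.5 and 247 normalised read counts in knockout polysomal libraries, against 193 and 162 in knockout total libraries. It had 303, 91.2 and 336 in wild-type polysomal replicates, against 301, 291 and 259 in total RNA. Wild-type polysomal replicate 2 was below every other library, and replicates 1 and 3 were at or above the total RNA level. The contrasts were 0.22 ± 0.30 in the knockout (limma adjusted p = 0.691) and −0.43 ± 0.46 in the wild type (limma adjusted p = 0.518). Without that replicate the wild-type value was 0.17 (limma adjusted p = 0.243), so its sign rested on 1 library.

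Sat1 (ENSMUSG00000025283; chromosome X, 155213126 to 155216449), the gene of spermidine/spermine acetyltransferase, had 115, 77.0 and 69.0 normalised read counts in knockout polysomal libraries, against 99.2 and 129.6 in knockout total libraries. It had 105, 107 and 66.9 in wild-type polysomal replicates, against 92.1, 83.6 and 71.8 in total RNA. The fractions overlapped in both genotypes. Neither contrast passed, at −0.41 ± 0.28 in the knockout (limma adjusted p = 0.421) and 0.15 ± 0.23 in the wild type (limma adjusted p = 0.652).

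**Figure D2:**
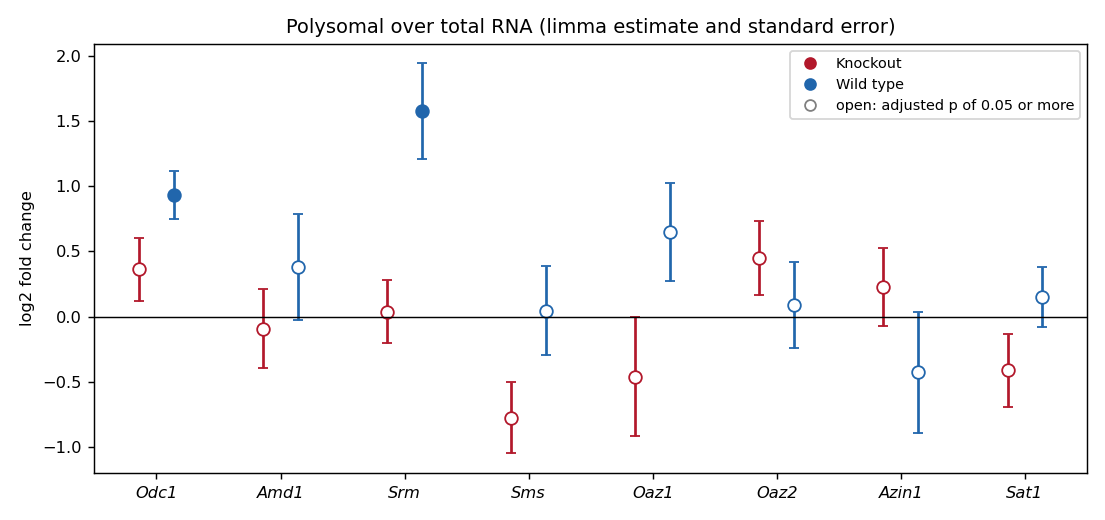
Polysomal over total RNA for each gene as a log2 fold change, with its standard error, for knockout (red, left) and wild type (blue, right). Filled points passed an adjusted p of 0.05. Odc1 at 0.93 and Srm at 1.57 in the wild type are the filled points.

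**Figure D3:**
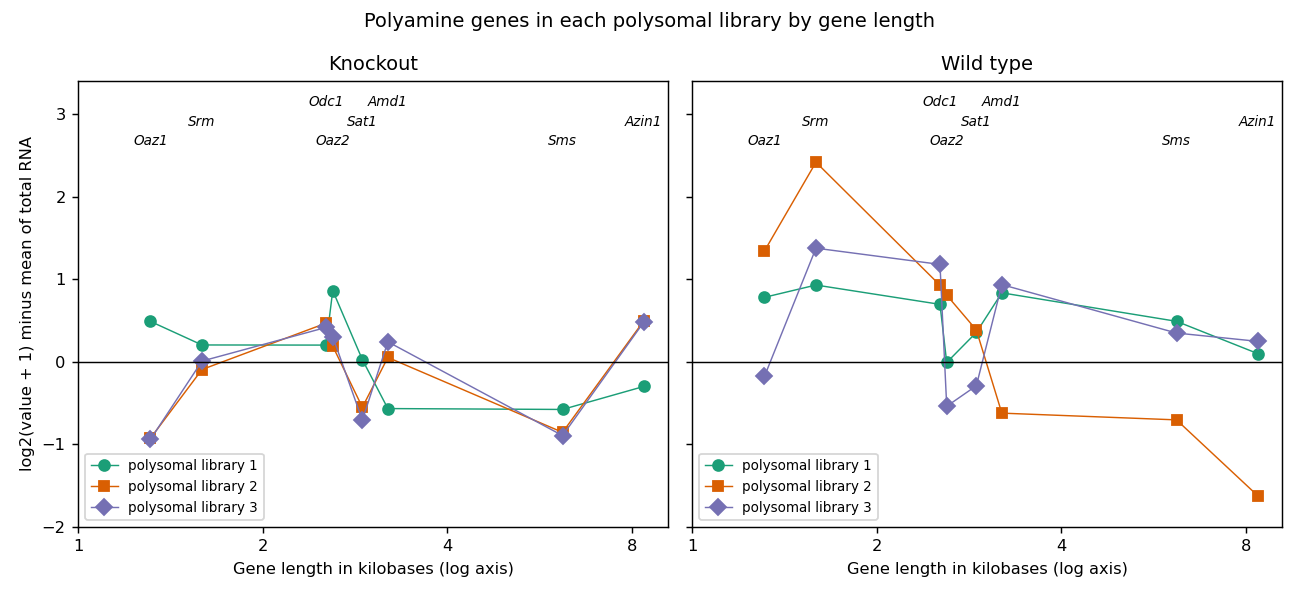
Log2 of each polysomal library's value plus 1 minus the mean of total RNA in its genotype, against gene length on a log axis, with knockout left and wild type right. In wild-type library 2 the values run from 2.42 for the short Srm to −1.62 for the long Azin1, while Odc1 stays between 0.69 and 1.18 in all 3 wild-type libraries.

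Each gene was also fitted with the length trend taken out of each library. In the wild type Srm then stood at 1.25 (limma adjusted p = 0.0208) and Odc1 at 0.81 (limma adjusted p = 0.0174), so both calls held at smaller values. The part of rRNA-like reads in these results was not tested beyond leaving out the libraries with over 10% of them. In the wild type that is polysomal replicate 2 alone, the same fit as given for Srm above, with Odc1 at 0.94 and Srm at 1.15. This replicate also had the strongest length trend, so the fit cannot tell rRNA-like reads and gene length apart.

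The difference in polysomal enrichment between the genotypes was tested in 1 fit over all 11 libraries. Of the 8 genes, 0 passed by limma, against 0.265% of all 12474 genes (0.224% higher and 0.0401% lower), and 1 of 8, Srm, was under an unadjusted p of 0.05, against 20.9% of all genes, which is no more than the background. Srm had the largest difference among them at −1.54 ± 0.48 (knockout minus wild type, 95% interval −2.58 to −0.49, unadjusted p = 0.00786, limma adjusted p = 0.133). The edgeR test on recovered reads called 0 members and DESeq2 called Srm, at −1.75 (DESeq2 adjusted p = 0.0298). Oaz1 stood at −1.11 ± 0.66, Sms at −0.82 ± 0.46, Odc1 at −0.57 ± 0.27, Sat1 at −0.56 ± 0.37 and Amd1 at −0.47 ± 0.56, with limma adjusted p of 0.256 to 0.62. Azin1 at 0.65 ± 0.62 and Oaz2 at 0.37 ± 0.46 had the opposite sign (limma adjusted p = 0.54 and 0.646). Thus the passing of Odc1 and Srm in the wild type and not in the knockout was not shown to be a difference between the genotypes by the limma test. The members' median was −0.57, against 0.09 for all genes.

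**Figure D4:**
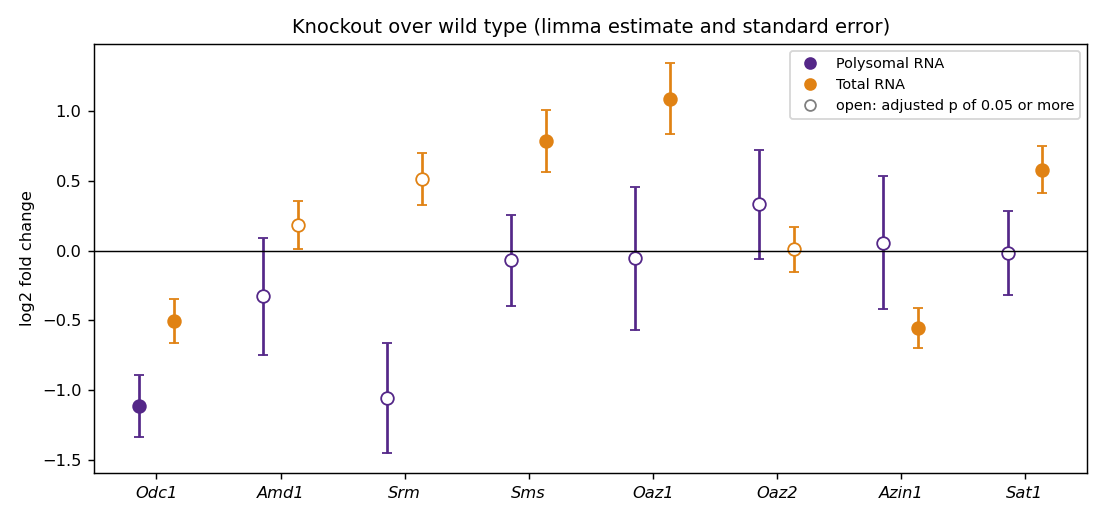
Log2 fold change of knockout over wild type for each gene, with its standard error, in polysomal RNA (purple, left) and total RNA (orange, right). Filled points passed an adjusted p of 0.05. Odc1 is below 0 and filled in both fractions, while Oaz1, Sms and Sat1 are above 0 and filled in total RNA alone.

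Knockout and wild-type cells were then compared within each fraction, after all 11 libraries were put on 1 common scale. In total RNA 5 of the 8 genes passed: Oaz1, Sms and Sat1 were higher in the knockout and Odc1 and Azin1 lower. This is against a background of 36.8% of all 11993 genes tested, 17.9% higher and 18.9% lower, so passing was common in this comparison. In polysomal RNA 1 gene passed, Odc1, which was lower in the knockout, where 2.57% of all 12184 genes passed, 1.62% higher and 0.952% lower. The genotypes did not overlap for 6 of the 8 genes in total RNA, against 65.2% of all genes, and for 2 of 8 in polysomal RNA, against 23.7%. On the scale as deposited, the median of all genes in total RNA shifted by −0.11, and 1596 genes were higher and 3113 lower in place of 2141 and 2272. On that scale Sat1 did not pass in total RNA (0.46, limma adjusted p = 0.063).

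Odc1 was lower in the knockout in both fractions, and the 1 member that passed in both. On the common scale it averaged 39.8 ± 3.89 normalised read counts in knockout polysomal RNA and 88.0 ± 15.1 in wild-type polysomal RNA (SD, n = 3 each). The groups lay far apart, and the log2 fold change was −1.11 ± 0.22 (limma adjusted p = 0.0443, lower in 3 of 3 knockout libraries). In total RNA it averaged 31.8 ± 5.55 (SD, n = 2) in the knockout and 45.1 ± 1.78 (n = 3) in the wild type, a log2 fold change of −0.50 ± 0.16 (limma adjusted p = 0.0384, lower in 2 of 2 knockout libraries). The highest knockout value of Odc1 in any fraction, 43.3 in polysomal library 2, lay just below the lowest wild-type value, 43.5 in total RNA replicate 1. Leaving out single polysomal libraries kept Odc1 between −1.26 and −1.01, and the call held without wild-type polysomal replicate 2 (limma adjusted p = 0.0376) and was lost without any other 1 library, at limma adjusted p of 0.0884 to 0.261. The call in total RNA was likewise lost without knockout total library 2 or any 1 wild-type total library, at −0.33 to −0.53.

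Srm took opposite signs in the fractions. In polysomal RNA it averaged 184 ± 19.9 in the knockout and 430.2 ± 261 in the wild type (SD, n = 3 each), with no overlap and a log2 fold change of −1.06 ± 0.40 that did not pass (unadjusted p = 0.0282, limma adjusted p = 0.239) and stood at −0.60 without wild-type polysomal replicate 2. In total RNA it averaged 185 ± 37.8 (n = 2) in the knockout and 129 ± 22.1 (n = 3) in the wild type, again with no overlap and at 0.52 ± 0.19 (limma adjusted p = 0.0612). It passed without knockout total library 1, at 0.72, and by DESeq2, at 0.55, and stood at 0.31 without knockout total library 2 (limma adjusted p = 0.2). Removing the length trend brought the total RNA value to 0.24 (limma adjusted p = 0.229). Srm is 1591 bases long, the shortest of the 8 after Oaz1.

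The antizyme gene Oaz1 and its inhibitor gene Azin1 moved in opposite directions in total RNA. Oaz1 averaged 63.6 ± 25.5 (SD, n = 2) in the knockout and 28.3 ± 4.67 (n = 3) in the wild type, at 1.09 ± 0.25 (limma adjusted p = 0.0136), about 2.13-fold higher, and higher in 2 of 2 knockout libraries. Azin1 averaged 186 ± 23.7 (n = 2) in the knockout and 273 ± 19.96 (n = 3) in the wild type, at −0.56 ± 0.14 (limma adjusted p = 0.0202). Knockout total library 2, in which short genes read high relative to library 1, had the higher Oaz1 and the lower Azin1 of the pair. The length trends of these 2 libraries are measured against their own mean, so they show only how both differ from each other. The part of gene length was not tested beyond the fit that follows. With the length trend removed Oaz1 stood at 0.75 and still passed, whereas Azin1 stood at −0.22 and did not (limma adjusted p = 0.144). Without knockout total library 2 Oaz1 was 0.68 and Azin1 −0.43, both past the threshold, and the call of Azin1 was lost without any 1 wild-type total library, at −0.51 to −0.62. That of Oaz1 was lost without wild-type total replicate 3, at 0.99. In polysomal RNA neither gene differed beyond its spread, at −0.056 ± 0.51 for Oaz1 (limma adjusted p = 0.9748) and 0.056 ± 0.48 for Azin1 (limma adjusted p = 0.972), whose sign turned on the deposited scale.

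Sms and Sat1 were also higher in knockout total RNA. Sms averaged 24.5 ± 6.63 (SD, n = 2) in the knockout and 13.6 ± 2.36 (n = 3) in the wild type, at 0.79 ± 0.22 (limma adjusted p = 0.0274). Sat1 averaged 120.0 ± 22.5 (n = 2) in the knockout and 79.5 ± 9.48 (n = 3) in the wild type, at 0.58 ± 0.17 (limma adjusted p = 0.0307). Every knockout value was above every wild-type value for both genes. Both calls held with the length trend removed, at 1.01 for the long Sms and 0.53 for Sat1. Both were lost without knockout total library 2, at 0.52 and 0.39, and without wild-type total replicate 2 or 3. That of Sat1 was also lost without wild-type total replicate 1. In polysomal RNA the genotypes overlapped, at −0.07 ± 0.33 for Sms and −0.019 ± 0.30 for Sat1 (limma adjusted p = 0.946 and 0.985).

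Amd1 and Oaz2 did not pass in either fraction. In total RNA Amd1 stood at 0.18 ± 0.17 (95% interval −0.21 to 0.58) and Oaz2 at 0.0086 ± 0.16 (−0.36 to 0.38), with limma adjusted p of 0.415 and 0.972. In polysomal RNA they stood at −0.33 ± 0.42 (−1.30 to 0.64) and 0.33 ± 0.39 (−0.57 to 1.24), with limma adjusted p of 0.759 and 0.731. The sign of Oaz2 in total RNA turned on the deposited scale, at −0.11.

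Further genes of the pathway were read from 7 lists of 44 genes, of which 29 were tested. In knockout over wild-type total RNA 9 of them were higher and 3 lower, with a median of 0.25 against −0.020 for all genes. These 12 of 29 are near the 36.8% of all genes that passed in this comparison. By direction 17.9% of all genes were higher and 18.9% lower, the shares against which the counts per list stand. All 3 tested genes of the list of polyamine catabolism and acetylation, of 4 listed, were higher. Smox, the spermine oxidase gene, had 44.0 and 45.6 normalised read counts on the common scale in knockout total RNA, against 24.1, 22.5 and 20.3 in wild-type total RNA. Its log2 fold change was 0.98 ± 0.15 (limma adjusted p = 0.00329), and it passed without any 1 of the 5 libraries and with the length trend removed, at 1.01. Paox, which oxidises acetylated polyamines, and Sat2, a paralog of Sat1, stood at 0.91 ± 0.26 and 0.79 ± 0.22 (limma adjusted p = 0.0271 and 0.0258). Both were low, at 5.90 normalised read counts or less on the common scale in every library, and neither passed with the length trend removed (0.71 and 0.46).

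Hypusination, in which spermidine is used to modify the translation factor eIF5A, had 2 of 4 genes higher and 1 lower in knockout total RNA. The deoxyhypusine synthase gene Dhps stood at 0.84 ± 0.16 (limma adjusted p = 0.0078) and the hydroxylase gene Dohh at 0.75 ± 0.20 (limma adjusted p = 0.0204). Eif5a2, a second gene of the factor, stood at −0.95 ± 0.17 (limma adjusted p = 0.00648), with 5.43 and 5.48 normalised read counts on the common scale in the knockout, against 11.7, 12.3 and 10.5 in the wild type. Eif5a itself was at 1014 and 976 in the knockout, against 929, 949 and 999 in the wild type, and did not pass (0.054 ± 0.13, limma adjusted p = 0.767, with the opposite sign on the deposited scale). Of 8 tested genes of the methionine cycle and salvage, 3 were higher: Apip at 0.76, Mat2b at 0.68 and Mri1 at 0.67 (limma adjusted p = 0.0242, 0.0188 and 0.0275). Apip did not pass with the length trend removed (0.36). Of 2 tested genes of ornithine supply, Aldh18a1 was lower, at −0.50 (limma adjusted p = 0.0282). None of 4 tested transport genes passed by limma. In the Myc network 1 of 8 was higher, Myc itself at 0.66 ± 0.18 (limma adjusted p = 0.0229), and 1 lower, the repressor gene Mga at −0.61 (limma adjusted p = 0.0453), which did not pass by edgeR. With the length trend removed Mga stood at −0.055. Of the 12 calls, those of Smox, Dhps and Eif5a2 held without any 1 of the 5 libraries, and each of the others was lost without at least 1. Oaz3, Azin2 and Amd2, paralogs of the antizyme, antizyme inhibitor and decarboxylase genes, were not tested.

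**Figure D5:**
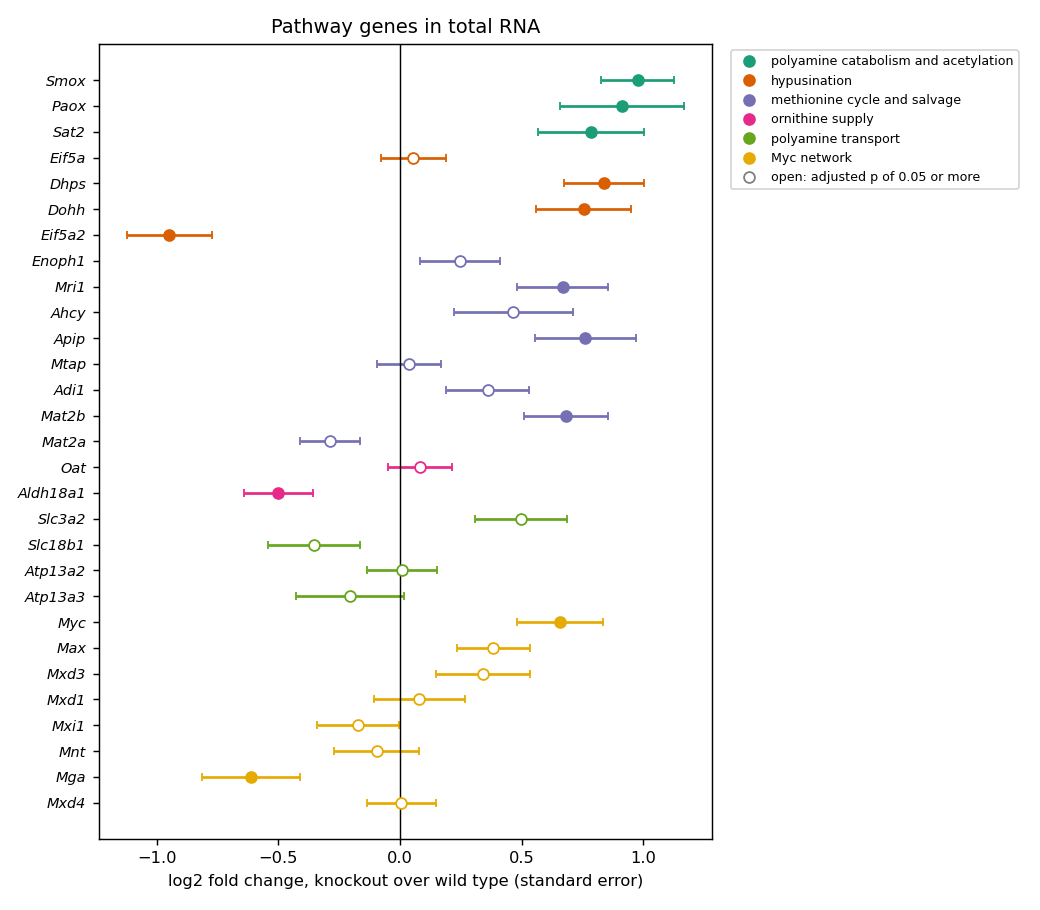
Log2 fold change of knockout over wild type in total RNA for the 29 tested pathway genes, with standard errors, coloured by list. Filled points passed an adjusted p of 0.05, 9 above 0 and 3 below, with Smox highest at 0.98 and Eif5a2 lowest at −0.95.

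In polysomal over total RNA, and between genotypes in polysomal RNA, the pathway genes passed about as often as all genes. In knockout polysomal over total RNA 0 of the 29 passed by limma, against 2.76% of all genes. In the wild type 4 were higher and 2 lower, against 22.7% of all genes called, 8.89% higher and 13.8% lower. The wild-type rises were Myc, a transcription factor known to activate Odc1 and Srm, at 1.46 ± 0.27, Eif5a at 1.10 ± 0.23, the methionine salvage gene Enoph1 at 0.996 ± 0.17 and Dhps at 0.87 ± 0.23 (limma adjusted p = 0.0107, 0.0154, 0.00806 and 0.0329). The falls were Aldh18a1 at −0.88 ± 0.21 and the Myc-network repressor gene Mxd4 at −1.35 ± 0.20 (limma adjusted p = 0.0267 and 0.00557). Mxd4 passed without any 1 of the 6 libraries, and each of the other 5 calls was lost without any 1 wild-type total library. That of Aldh18a1 was also lost without wild-type polysomal replicate 1. Myc had 303, 615 and 433 normalised read counts in wild-type polysomal RNA, against 139, 161 and 171 in wild-type total RNA. The knockout values of Myc were 276, 272 and 225 in polysomal RNA, against 193 and 267 in total RNA, a log2 fold change of 0.18 ± 0.25 (limma adjusted p = 0.712). In the knockout Eif5a stood at 0.60 ± 0.29 (limma adjusted p = 0.25) and Smox at −0.41 ± 0.25 (limma adjusted p = 0.365), against 0.58 ± 0.26 for Smox in the wild type (limma adjusted p = 0.14). Between genotypes in polysomal RNA 1 of 29 genes passed, Mxd4 at 2.02 ± 0.24 (limma adjusted p = 0.008), against 2.57% of all genes; its call was lost without knockout polysomal library 3, at 1.98 (limma adjusted p = 0.086). There Myc stood at −0.67 ± 0.32, Eif5a at −0.48 ± 0.33 and Smox at −0.047 ± 0.31 (limma adjusted p = 0.358, 0.532 and 0.965). In the difference in enrichment Mxd4 again was the 1 gene of 29 past the threshold, at 2.06, against 0.265% of all genes, and Myc, Smox and Eif5a stood at −1.28 ± 0.37, −0.98 ± 0.36 and −0.50 ± 0.33 (limma adjusted p = 0.122, 0.173 and 0.387).

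The genes with the most similar profiles were sought for each member, by the root mean square difference of log2 profiles over the 11 libraries, each centred on its mean. For Odc1 they were Ung, Rgs20 and Mybl2, at 0.16 on the log2 scale, where the median over all genes was 0.69. For Srm they were Rps6, Nhp2l1 and Ifrd2, at 0.17 to 0.19 against a median of 0.81. Oaz1 was closest to Rps10-ps2, Tsen15 and Zmat5, at 0.15 to 0.16 against 0.77. Azin1 was closest to Fnbp1l, at 0.085, then to Ints8 and Sept10, against 0.65. Amd1 was closest to Chordc1, Ttc14 and Selt, Sms to Aimp1, Vdac3 and Nae1, Oaz2 to Morn4, Dnal4 and Zfp523, and Sat1 to Tmem101, Arl3 and Pdcl3, at 0.11 to 0.17 throughout. These profiles share libraries, depth and the trends described above, so the likeness is a description.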

How the data were processed

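Total and polysomal RNA of C2C12 myoblasts was sequenced. The authors deposited 1 complete table per genotype. The signal values of its library columns were made by the authors from reads counted per gene, scaled by 1 factor per library (read from the deposited values, 100% of them whole within 0.001 reads), and are called normalised read counts here. The file names call them CPM, but columns summed to 847338 to 1215073. STAR, HTSeq, edgeR and mm10 are named, without versions, per the submitters' processing notes. The authors' tables also hold gene length, a log2 fold change, a mean log2 CPM, a p-value and an FDR. Knockout columns match titles by group only, so their libraries carry column numbers.

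Genes that reached a value of 1 in 3 or more of the libraries fitted were tested two-sided with limma 3.58.1 (R 4.3.3, mean-variance trend) on log2(value + 1), with Benjamini-Hochberg adjustment at 0.05. For comparisons between genotypes, libraries were put on a common scale by the median of ratios over genes listed in both tables. The test is the one planned for CPM values. The rRNA-like share covers 6 gene models, of which Gm26924 was added after its values were seen. Members and lists were chosen with earlier results of these data known. All 8 members are named, and of the lists each gene past the threshold, up to 3 a list, plus Eif5a, Smox and Myc. Coordinates and sequences are RefSeq's, build GRCm38.p6, matched by symbol. Alternatives were pseudocount 0.5, no filter, edgeR 4.0.16 and DESeq2 1.42.0 on recovered reads, other scaling, removal of the length trend, a replicate block and leaving out libraries. Intervals cover the spread between libraries, and depth adds counting error only.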

Additional observations from a re-analysis of the deposited data

Results flagged for a closer look

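Mxd4, a repressor gene of the Myc network and no polyamine gene itself, was picked out because its polysomal enrichment differed between the genotypes by a test of the difference itself. It had 164, 132 and 164 normalised read counts in knockout polysomal RNA, against 101 and 84.6 in knockout total RNA, and 45.2, 42.6 and 30.5 in wild-type polysomal RNA, against 102, 94.3 and 105 in wild-type total RNA. The log2 difference was 2.06 ± 0.28 (knockout minus wild type, limma adjusted p = 0.0249), and with the length trend removed it was 1.92 (limma adjusted p = 0.0216). With single libraries left out it ran from 1.89 to 2.19, and the call was lost without 7 of the 11 libraries: knockout polysomal 2 or 3, knockout total 2, wild-type polysomal 3 or any 1 wild-type total library (limma adjusted p = 0.0509 to 0.205).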

How the results depend on the processing

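With 2 or 3 libraries a group, calls near the threshold rest on single libraries, and a lone library left in a group is assumed to vary like the others. Leaving out the rRNA-rich libraries, those with over 10% rRNA-like reads, leaves knockout polysomal library 3 alone in its group. Wild-type polysomal over total RNA called 2 members, and 0 to 3 with 1 library left out; over all genes it called 2806, against 4369 by DESeq2, 5777 without the rRNA-rich polysomal libraries (an alternative chosen after seeing the data) and 461 to 5777 with 1 library left out. The knockout contrast called 0 members (0 to 2) and 333 genes, against 1288 by DESeq2, 1460 with the length trend removed and 5 to 1622 with 1 library left out. Knockout over wild type called 5 members in total RNA (0 to 6) and 4413 genes (1574 to 7172). In polysomal RNA it called 1 member (0 to 1) and 313 genes, against 955 by DESeq2, 517 with the length trend removed, 1469 without the rRNA-rich libraries and 25 to 594 with 1 library left out. The genotype difference called 0 members (0 to 0 with 1 library left out), 1 by DESeq2 and 1, Sms at −1.31, without the rRNA-rich libraries; over all genes 33, against 951, 126 with the length trend removed, 1109 and 0 to 355. The cause of these shifts was not tested.

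Signs turned for the following, none past the threshold. Wild-type Oaz2 was −0.025 with the length trend removed, and without the rRNA-rich library Azin1 was 0.17 and Oaz2 −0.27. With 1 library left out wild-type Sms ran from −0.18 to 0.42, Azin1 from −0.76 to 0.17 and Oaz2 from −0.27 to 0.40. In the knockout Srm was −0.010 by DESeq2. Without the rRNA-rich libraries, which leaves polysomal library 3 alone, Amd1 was 0.24 and Myc −0.014. With 1 library left out Amd1 ran from −0.26 to 0.15, Srm from −0.17 to 0.25 and Myc from −0.055 to 0.41. In total RNA Oaz2 was −0.11 and Eif5a −0.069 on the deposited scale, Oaz2 −0.087 with the length trend removed and −0.13 to 0.15 with 1 library left out. In polysomal RNA Azin1 was −0.085 by edgeR and DESeq2, −0.026 on the deposited scale, −0.055 with the length trend removed and −0.27 without the rRNA-rich libraries, where Smox was 0.13; Oaz1 was 0.054 with the length trend removed. With 1 library left out there Azin1 ran from −0.50 to 0.37, Oaz1 from −0.53 to 0.33, Sat1 from −0.26 to 0.14, Sms from −0.41 to 0.13 and Smox from −0.21 to 0.26.

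Pairing by replicate number was tried in the wild type alone. Same-numbered fractions deviated with r of 0.21, −0.22 and −0.072 across genes, and differently numbered ones with r of −0.31 to 0.26. With values this alike, the correlations cannot tell whether same-numbered fractions came from the same culture. With a replicate block 2 members (Odc1 at 0.93 and Srm at 1.57) and 1946 genes were called, and Dhps was not. No paired analysis was made in the other comparisons. The numbers of the knockout columns are not matched to those of the titles, and no label pairs libraries of different genotypes.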
